A study of Mus musculus with 12 samples.

Results

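5-azacitidine added to PD-901 was examined by setting the 3 Combo libraries against the 3 PD-901 libraries, which are 6 of the 12 bone marrow libraries of the study. The 6 were chosen by the labelled treatment alone, and 17475 of 56350 genes in the table had enough counts to be tested. Combo mice received both drugs, with 20 gavage doses of PD-901 at 5 mg/kg and 5 peritoneal doses of 5-azacitidine at 5 mg/kg within the same 4 weeks. PD-901 mice received the same 20 doses of PD-901 without 5-azacitidine. All 6 were Shp2E76K/+;LysM-Cre+ mice of the C57Bl/6J strain, aged about 12 to 14 weeks, with both sexes in use, so the mutant allele and PD-901 are shared by both groups. The remaining 6 libraries, 3 from 5-azacitidine mice and 3 from Vehicle mice of the same genotype, give the change with 5-azacitidine in the absence of PD-901.

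Shp2, encoded by Ptpn11, is a phosphatase that passes signals from growth factor receptors to Ras, and E76K is an activating change found in juvenile myelomonocytic leukaemia. Ras signals through RAF, MEK and ERK, and PD-901 (PD0325901) inhibits MEK. 5-azacitidine is a cytidine analogue that is incorporated into RNA and DNA and traps the DNA methyltransferases, so that newly made DNA loses methylation. LysM-Cre is driven from the lysozyme M gene, Lyz2, in granulocytes, monocytes and macrophages, so erythroid, lymphoid and stromal cells of the same marrow are not its main targets. The RNA came from whole bone marrow, and in such bulk samples fewer cells of a type and less RNA per cell cannot be told apart.

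Total counts were 18433456 to 23839253 in the Combo libraries and 16335382 to 27148190 in the PD-901 libraries. Ptpn11 was at 131, 163 and 146 CPM (counts scaled to a common library total) in Combo marrow and at 132, 120 and 139 CPM in PD-901 marrow, and the counts do not tell the mutant allele from the normal one. PD-901 replicates 2 and 3 held both Xist, the X-inactivation RNA of female cells, at 343 and 148 CPM, and the Y-linked Ddx3y at 16.9 and 49.2 CPM. PD-901 replicate 1 and all 3 Combo libraries had Xist at 1.19 to 7.14 CPM and Ddx3y at 64.6 to 86.2 CPM. Outside this contrast, Vehicle replicates 1 and 3 and 5-azacitidine replicate 2 also held both RNAs (Xist at 138, 158 and 238 CPM, Ddx3y at 48.0, 53.1 and 45.2 CPM). Vehicle replicate 2 had Xist at 725 CPM and Ddx3y at 0 CPM. 5-azacitidine replicates 1 and 3 had Xist at 1.32 and 0.556 CPM. Libraries labelled as single mice that carry both RNAs stand apart from that labelling. The counts of genes below are therefore given with and without PD-901 replicates 2 and 3. Without them PD-901 is a lone library, which is then assumed to vary as the other groups do. Lyz2 itself spread widely, at 44.9, 55.9 and 1151 CPM in Combo marrow and 4182, 699.6 and 2566 CPM in PD-901 marrow (log2 change -2.57 ± 1.62 (SE), edgeR adjusted p = 0.428). The 4 libraries lowest in Lyz2 were Combo replicates 1 and 2 and Vehicle replicates 1 and 2. Fits without them leave Combo replicate 3 and Vehicle replicate 3 as lone libraries, assumed to vary as the other groups do. Mean Lyz2 was 417 CPM in Combo and 2483 CPM in PD-901. A fit with its level as a covariate can therefore take up part of the group difference. The mitochondrial share of counts was 1.75% to 1.81% in Combo and 1.01% to 1.27% in PD-901, with no overlap, and its part in the results was not tested.

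Adding 5-azacitidine was accompanied by lower expression of ERK-responsive and immediate early genes, B lineage genes, mature neutrophil genes and interferon-response genes. There were also small rises in DNA replication genes and large rises in a few genes, such as Podxl and Cda, that were at low levels in PD-901 marrow. The calls of higher genes depended on the libraries included, as given below. With edgeR's quasi-likelihood test at an adjusted p under 0.05, 1191 of 17475 genes (6.82%) differed. Of these, 296 (1.69%) were higher and 895 (5.12%) were lower in Combo. The median log2 change was 0.63 among the higher genes and -1.03 among the lower ones, against 0.01 over all genes tested, and at least 2-fold changes numbered 52 higher (0.298%) and 463 lower (2.65%). Protein-coding genes made up 286 of the higher and 831 of the lower calls. The 3 libraries of each group did not overlap for 294 of the higher and 893 of the lower genes, where 27.7% of all genes tested were free of overlap.

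These counts depended on single libraries. The number of higher genes was 60 without Combo replicate 1, 67 without Combo replicate 3, 35 without PD-901 replicate 1, 132 without PD-901 replicate 2, 99 without PD-901 replicate 3 and 163 without Vehicle replicate 2, a library outside this contrast whose omission changes the shared estimate of spread and the genes that pass the count filter. The number of lower genes was 326 without Combo replicate 1, 415 without Combo replicate 3 and 386 without PD-901 replicate 1. Without PD-901 replicates 2 and 3 together, 8 genes were higher and 422 lower, and with the Lyz2 level as a covariate 12 were higher and 144 lower. Of the genes called in the full comparison, 8 of 296 higher and 413 of 895 lower were called again without those 2 libraries, and none had the opposite sign. None of the individual genes named below as higher was called without those 2 libraries.

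**Figure D1:**
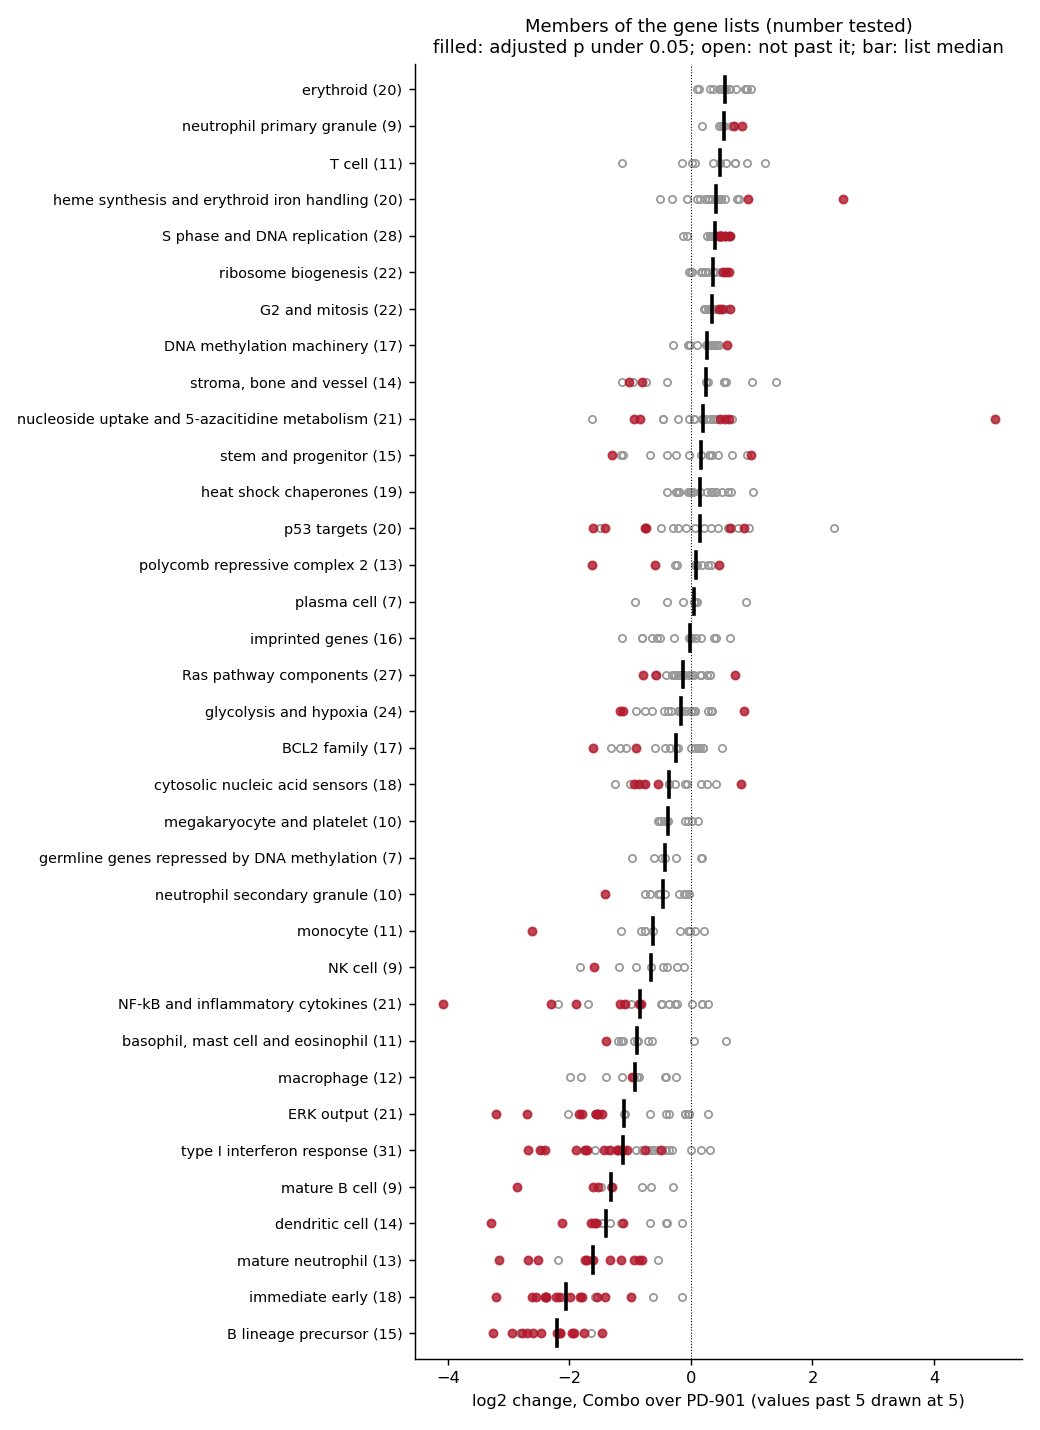
Log2 change of Combo over PD-901 (horizontal axis) for the tested members of 35 gene lists (rows, with the number tested). Each circle is 1 gene, filled where the edgeR adjusted p was under 0.05, and the bar is the list median. The list medians run from 0.56 for erythroid genes at the top to -2.21 for B lineage precursor genes at the bottom, and Cda is drawn at the right edge.

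Genes known to respond to ERK were lower in Combo than in PD-901 marrow, and ERK activity itself was not measured. The summed level of the list was 341 to 416 CPM in Combo, 776 to 1007 CPM in PD-901 and 700 to 927 CPM in Vehicle libraries. PD-901 marrow was therefore not below Vehicle marrow in this sum. Of 21 tested genes known to respond to ERK, 8 fell and 0 rose, against 5.12% lower and 1.69% higher among all genes, and the median log2 change of the 21 was -1.10. Dusp6, on chr10:99263231-99267489 (mm10), encodes a phosphatase that ERK induces and that removes the phosphates from ERK. Its level was 21.2, 27.9 and 45.6 CPM in Combo marrow and 224.7, 179.5 and 211.1 CPM in PD-901 marrow. Every Combo library lay far below every PD-901 library, with a log2 change of -2.70 ± 0.28 (SE) and an edgeR adjusted p of 0.00193, and the call held without any 1 of the 12 libraries and without PD-901 replicates 2 and 3. Egr1 (chr18:34859823-34864984), a zinc finger transcription factor switched on within minutes of ERK activation, was at 17.5, 21.5 and 21.2 CPM in Combo and 283.3, 123.8 and 148.5 CPM in PD-901 (log2 change -3.21 ± 0.46, edgeR adjusted p = 0.00355). The Combo values were nearly equal, while PD-901 replicate 1 was the highest by a wide margin. Dusp5, a nuclear phosphatase of ERK, was at 5.14, 6.99 and 6.08 CPM in Combo and 17.5, 20.7 and 15.4 CPM in PD-901 (log2 change -1.56 ± 0.24, edgeR adjusted p = 0.00275).

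The other 5 that fell were Ier3, Il1rn, Phlda1, Epha2 and Ccnd1. Ccnd1, cyclin D1, had 7.28, 11.5 and 17.0 CPM in Combo and 21.2, 36.3 and 67.3 CPM in PD-901 (edgeR adjusted p = 0.0449), groups that stood apart but with a wide spread. Epha2, a receptor tyrosine kinase, had 5.50, 8.31 and 2.25 CPM in Combo and 11.9, 16.5 and 29.0 CPM in PD-901 (edgeR adjusted p = 0.0441). The remaining 13 did not pass the test. Etv5, an ETS factor, had a log2 change of -1.09 (edgeR adjusted p = 0.0782). Spry4, an inhibitor of receptor signalling to Ras, had -1.58 (edgeR adjusted p = 0.276) with 0.102, 0.408 and 3.59 CPM in Combo and 3.13, 5.06 and 4.48 CPM in PD-901. Myc and the Spred genes, whose products restrain Ras, were among the 13, with Myc at a log2 change of 0.28 (edgeR adjusted p = 0.300). Without Combo replicate 1, 4 of the 21 were lower, and without PD-901 replicates 2 and 3, 5 were. With the Lyz2 level as a covariate the count was 4, and without the 4 libraries lowest in Lyz2 it was 4.

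Immediate early genes, which cells transcribe within minutes of a stimulus without new protein synthesis, changed in the same direction. Of 18 tested, 14 fell and 0 rose, with a median log2 change of -2.05, and Egr1 and Ier3 are counted in both lists. Their summed level was 1254 to 1676 CPM in Combo libraries and 4532 to 8339 CPM in PD-901 libraries. In Vehicle libraries it was 3568 to 4315 CPM, so every PD-901 library lay above every Vehicle library. Fos, a subunit of the AP-1 transcription factor, had 119, 188 and 95.1 CPM in Combo and 1084, 519.7 and 505.4 CPM in PD-901 (log2 change -2.39 ± 0.43, edgeR adjusted p = 0.00712). PD-901 replicate 1 held about as much Fos as the other two PD-901 libraries together, and the lowest PD-901 library still exceeded the highest Combo library. Zfp36, whose product destabilizes cytokine mRNAs, had 177.5, 261.8 and 177.4 CPM in Combo and 1548, 887.8 and 834.1 CPM in PD-901 (log2 change -2.41 ± 0.30, edgeR adjusted p = 0.00193). Klf2, a zinc finger factor of quiescent leukocytes, had 58.4, 83.3 and 65.7 CPM in Combo and 534.2, 370.4 and 305.4 CPM in PD-901 (log2 change -2.55 ± 0.33, edgeR adjusted p = 0.00207). Junb, Jun, Ier2, Ier5, Nr4a1, Klf6, Btg2, Dusp1 and Atf3 also fell. Without PD-901 replicates 2 and 3 the median of the 18 was -2.44. The remaining PD-901 replicate 1 held the highest summed level of its group, 8339 CPM against 4695 and 4532 CPM. Leaving out any 1 of the 6 libraries gave 11 to 16 called lower. The count was 5 with the Lyz2 level as a covariate and 6 without the 4 libraries lowest in Lyz2.

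**Figure D2:**
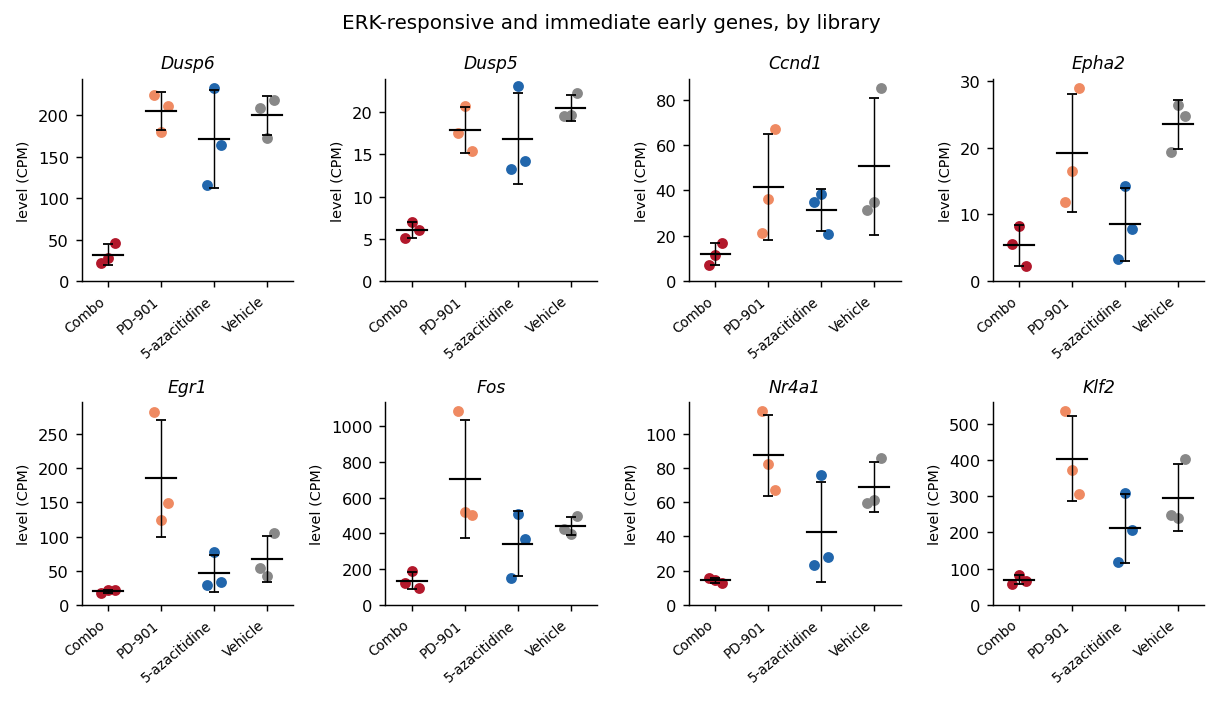
Levels (CPM, vertical axes from 0) of 8 ERK-responsive and immediate early genes in Combo, PD-901, 5-azacitidine and Vehicle marrow. Points are libraries, 3 a group, with the mean and SD as bars. The Combo points of each gene lie below its PD-901 points, as for Dusp6 at 21.2 to 45.6 CPM in Combo and 179.5 to 224.7 CPM in PD-901.

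Neutrophil genes are described by the stage at which they are made. The 9 tested genes listed for the primary granule stage, that of promyelocytes, had a positive median log2 change of 0.55. Of these 9, 2 were higher and 0 lower, against 1.69% higher over all genes. Those 2 were Ctsg, the protease cathepsin G, at 664.4, 675.4 and 398.0 CPM in Combo and 296.3, 324.3 and 351.3 CPM in PD-901 (edgeR adjusted p = 0.0449), and the glutathione transferase gene Gstm1 (edgeR adjusted p = 0.0483). Neither was called without PD-901 replicates 2 and 3 or without any 1 PD-901 library, Combo replicate 1, Combo replicate 2 or Vehicle replicate 2. The 10 genes listed for the secondary granule stage had a median of -0.46. Ly6g, the Gr-1 surface antigen, was the only call, at 86.7, 91.9 and 99.6 CPM in Combo and 361.9, 199.6 and 182.1 CPM in PD-901 (log2 change -1.42 ± 0.28, edgeR adjusted p = 0.00834). This call was lost without Combo replicate 1.

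Genes of mature neutrophils were lower still. Of 13 tested, 11 fell and 0 rose, with a median log2 change of -1.61, and their summed level was 11172 to 14799 CPM in Combo and 23405 to 37072 CPM in PD-901. Retnlg, a resistin-like secreted protein of late neutrophils, had 353, 501 and 440 CPM in Combo and 4180, 2316 and 1793 CPM in PD-901 (log2 change -2.68 ± 0.36, edgeR adjusted p = 0.00209). Mmp9, a gelatinase stored in tertiary granules, had 491, 1157 and 836 CPM in Combo and 3315, 2382 and 2589 CPM in PD-901 (log2 change -1.74 ± 0.30, edgeR adjusted p = 0.00487). Csf3r, the G-CSF receptor, had 268, 475 and 299 CPM in Combo and 1462, 973 and 968 CPM in PD-901 (log2 change -1.71 ± 0.31, edgeR adjusted p = 0.00674). In all 3 genes the groups were separate, with PD-901 replicate 1 the highest. Cxcr2, the chemokine receptor of circulating neutrophils, fell as well, as did Padi4, Mmp8, Ccl6 and the calprotectin genes S100a8 and S100a9. Stfa2l1, a stefin-family protease inhibitor, had a log2 change of -3.15 ± 0.39 (edgeR adjusted p = 0.00193), but it sits beside the similar Cstdc4, and reads of such copies can be split by the counting. Without PD-901 replicates 2 and 3 the median of the 13 genes was -1.91. That fit used PD-901 replicate 1 alone, which held the highest summed level of its group, 37072 CPM. Of the 13, 4 were called lower without Combo replicate 1, 5 without Combo replicate 3 and 6 without PD-901 replicate 1. The count was 4 with Lyz2 as a covariate and 6 without the 4 libraries lowest in Lyz2, and the fall of Ly6g was not called in either.

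B lineage genes showed the lowest list median. Of 15 tested genes of B cell precursors, 13 fell and 0 rose, and the median log2 change was -2.21. Against 27.7% of all genes tested, the groups did not overlap for any of these 15. Their summed level was 112 to 282 CPM in Combo libraries and 760 to 850 CPM in PD-901 libraries. Rag2, a subunit of the recombinase that assembles antigen receptor genes, had 1.27, 2.14 and 1.18 CPM in Combo and 6.23, 8.97 and 12.7 CPM in PD-901 (log2 change -2.61 ± 0.36, edgeR adjusted p = 0.00207), though its exons overlap those of another gene. Ebf1, the transcription factor that commits progenitors to the B lineage, had 3.00, 12.9 and 4.89 CPM in Combo and 34.2, 40.7 and 39.7 CPM in PD-901 (log2 change -2.47 ± 0.39, edgeR adjusted p = 0.00359). Cd79a, a signalling chain of the B cell receptor, had 24.7, 45.0 and 25.3 CPM in Combo and 158, 164 and 117 CPM in PD-901 (log2 change -2.21 ± 0.34, edgeR adjusted p = 0.00355). Combo replicate 2 was the highest Combo library for each of these 3 genes and still lay below all PD-901 libraries. The surrogate light chain genes Vpreb1, Vpreb3 and Igll1, and Pax5, Blnk, Cd79b, Lef1, Il7r and Rag1, also fell.

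Among 9 tested genes of mature B cells, 4 fell (Spib, Fcmr, Cd22 and Ms4a1) and 0 rose, with a median of -1.31. Spib, an ETS factor of B cells and plasmacytoid dendritic cells, had 11.5, 29.1 and 7.18 CPM in Combo and 99.7, 110.5 and 135.1 CPM in PD-901 (log2 change -2.86 ± 0.44, edgeR adjusted p = 0.00399). The B precursor count was 5 without Combo replicate 1 and 2 without PD-901 replicates 2 and 3, where the median was -2.10, and it was 5 with Lyz2 as a covariate and 6 without the 4 libraries lowest in Lyz2. For mature B genes it was 1 without Combo replicate 1, Combo replicate 3 or PD-901 replicate 1, 2 without PD-901 replicate 2, and 1 without PD-901 replicates 2 and 3, with Lyz2 as a covariate or without the 4 libraries lowest in Lyz2. None of the 7 plasma cell genes, 11 T cell genes or 10 megakaryocyte genes tested passed the test, with medians of 0.05, 0.47 and -0.38.

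Dendritic cell genes fell in 6 of 14 tested, with none higher and a median log2 change of -1.40. Siglech, a surface lectin of plasmacytoid dendritic cells, had 15.6, 22.4 and 3.75 CPM in Combo and 44.0, 56.1 and 80.8 CPM in PD-901 (log2 change -2.12 ± 0.53, edgeR adjusted p = 0.0330). Cd209a, a C-type lectin of dendritic cells derived from monocytes, had 2.19, 2.09 and 0.592 CPM in Combo and 17.8, 16.9 and 12.4 CPM in PD-901 (log2 change -3.29 ± 0.73, edgeR adjusted p = 0.0196). Both genes were separate between groups, with Combo replicate 3 the lowest. Irf4, Itgax, Ccr9 and Bst2 were the others. The dendritic count was 2, 2, 3, 1 and 2 without Combo replicate 1, Combo replicate 3, PD-901 replicate 1, PD-901 replicate 2 and PD-901 replicate 3 in turn, and 0 without PD-901 replicates 2 and 3, although the median there was -1.42. It was 0 with Lyz2 as a covariate and 1 without the 4 libraries lowest in Lyz2.

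Other marrow cell types had few genes that passed the test. Over all genes tested, 5.12% were lower and 1.69% higher. The only call among 11 monocyte genes was Nr4a1, which is also an immediate early gene, and Csf1r, the M-CSF receptor, had a log2 change of -0.75 (edgeR adjusted p = 0.104). Single genes were lower among 12 macrophage genes (Cd163), 9 natural killer cell genes (Prf1) and 11 basophil, mast cell and eosinophil genes (Mcpt8), with medians of -0.91, -0.66 and -0.89. Log2 changes were negative for all 12, all 9 and 9 of the 11. Summed macrophage genes were at 463 to 689 CPM in Combo and 846 to 1100 CPM in PD-901. Those of the basophil list were at 550 to 771 and 937 to 1635 CPM. The natural killer sums overlapped, at 32.8 to 44.5 and 41.3 to 90.0 CPM. The Cd163 call was lost without Combo replicate 1 or 2, any 1 PD-901 library, 5-azacitidine replicate 3 or Vehicle replicate 1 or 2. That of Prf1 was lost without any 1 Combo library, PD-901 replicate 2 or 3, 5-azacitidine replicate 3 or Vehicle replicate 2, and that of Mcpt8 without Combo replicate 1 or 3 or PD-901 replicate 3. The collagen genes Col1a1 and Col1a2 were lower among 14 stromal genes, and neither was called without Combo replicate 1 or PD-901 replicate 2. Of these 5 genes none was called without PD-901 replicates 2 and 3 (edgeR adjusted p = 0.537 for Cd163, 0.752 for Prf1, 0.328 for Mcpt8, 0.290 for Col1a1 and 0.508 for Col1a2). In the stem and progenitor list, Hlf, a transcription factor of stem cells, rose and Sox4 fell, with neither called without PD-901 replicates 2 and 3.

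All 20 tested erythroid genes had positive log2 changes with a median of 0.56, and none passed the test. Their summed level was 3667 to 11092 CPM in Combo and 4574 to 6041 CPM in PD-901, so the Combo range enclosed the PD-901 range. Combo replicate 2 was the low library. Slc4a1, the band 3 anion exchanger, had 570, 285 and 1030 CPM in Combo and 262, 299 and 386 CPM in PD-901 (edgeR adjusted p = 0.182). Without Combo replicate 2, 14 of the 20 were called higher. In 5-azacitidine over Vehicle the median of the same 20 genes was 0.65.

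**Figure D3:**
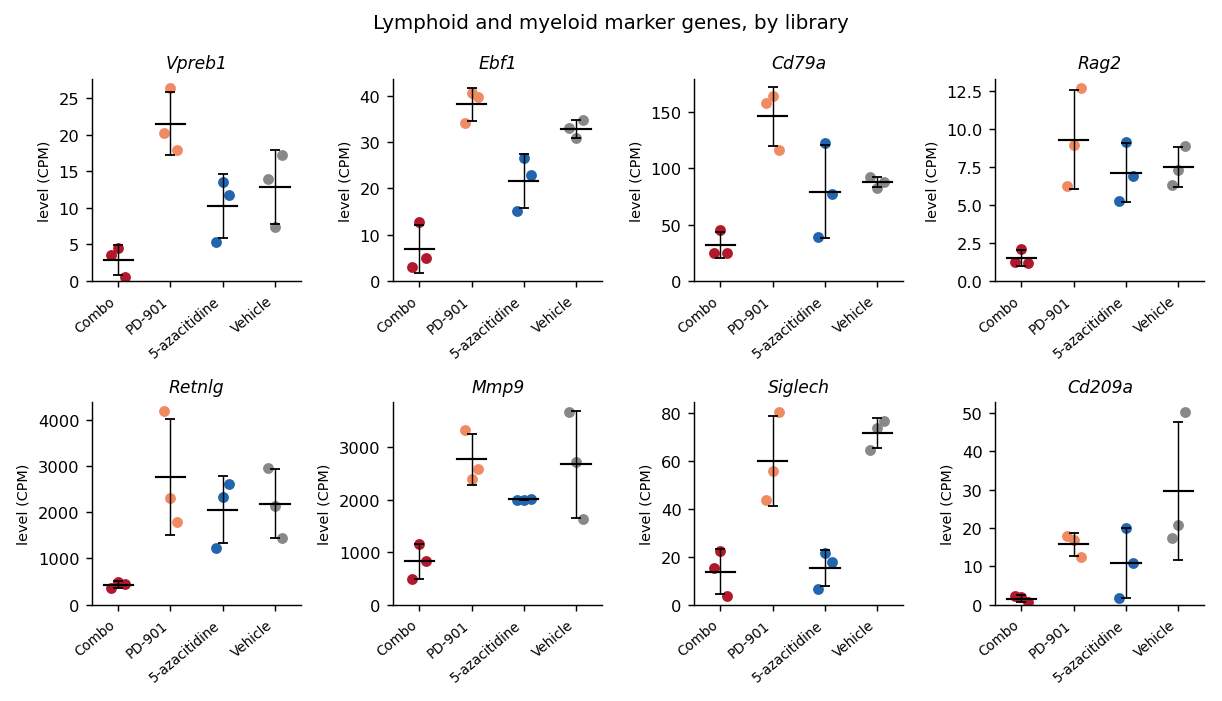
Levels (CPM, vertical axes from 0) of 4 B lineage genes (upper row) and of 2 neutrophil and 2 dendritic cell genes (lower row) in Combo, PD-901, 5-azacitidine and Vehicle marrow. Points are libraries with the group mean and SD. For each gene the 3 Combo points lie below the 3 PD-901 points, as for Retnlg at 353 to 501 CPM in Combo and 1793 to 4180 CPM in PD-901.

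Genes of the type I interferon response, which interferon-activated transcription factors switch on together through interferon-stimulated response elements, were lower. Of 31 tested, 15 fell and 0 rose, with a median log2 change of -1.12 and a summed level of 856 to 1130 CPM in Combo and 1544 to 1997 CPM in PD-901. In 5-azacitidine over Vehicle the same 31 genes had a median of -0.52, with none called. Oas3, a sensor of double-stranded RNA that makes the activator of RNase L, had 52.4, 96.1 and 69.2 CPM in Combo and 172, 172 and 244 CPM in PD-901 (log2 change -1.43 ± 0.22, edgeR adjusted p = 0.00275). Isg15, a ubiquitin-like modifier, had 7.18, 6.68 and 10.8 CPM in Combo and 18.7, 19.3 and 19.4 CPM in PD-901 (log2 change -1.21 ± 0.31, edgeR adjusted p = 0.0301). Ifit1, whose product binds foreign RNA ends, had 5.34, 4.69 and 2.64 CPM in Combo and 13.5, 12.1 and 16.9 CPM in PD-901 (edgeR adjusted p = 0.0301). In these 3 genes no Combo library reached the lowest PD-901 library. Ifit3, a partner of Ifit1, had 3.31, 3.62 and 1.89 CPM in Combo and 13.5, 13.8 and 21.5 CPM in PD-901 (edgeR adjusted p = 0.0481), and its close copy Ifit3b fell too, so the split of reads between them is uncertain. Irf7, the master regulator of late interferon genes, had 25.5, 36.8 and 33.8 CPM in Combo and 96.9, 85.9 and 133 CPM in PD-901 (edgeR adjusted p = 0.0112), with exons that overlap those of Phrf1. Irf9 was lower as well. The count of 15 was 4 without Combo replicate 1, 4 without Combo replicate 3, 5 without PD-901 replicate 1, 6 without PD-901 replicate 3 and 4 without PD-901 replicates 2 and 3. It was 1 with the Lyz2 level as a covariate and 8 without the 4 libraries lowest in Lyz2.

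The promoters of 3 of these interferon genes are shown because each holds the interferon-stimulated response element. It was present in 11 of the 22 promoters found for the list. Each runs 300 bases around the gene start on GRCm38.p6 (RefSeq), and capitals mark the core of the interferon-stimulated response element, which is GAAA, any 2 bases and GAAA again, on either strand, where overlapping matches run together. Ifit3 is at chr19:34583279-34583578 on the plus strand, Isg15 at chr4:156200769-156201068 on the minus strand and Ifit1 at chr19:34640639-34640938 on the plus strand.
Ifit3: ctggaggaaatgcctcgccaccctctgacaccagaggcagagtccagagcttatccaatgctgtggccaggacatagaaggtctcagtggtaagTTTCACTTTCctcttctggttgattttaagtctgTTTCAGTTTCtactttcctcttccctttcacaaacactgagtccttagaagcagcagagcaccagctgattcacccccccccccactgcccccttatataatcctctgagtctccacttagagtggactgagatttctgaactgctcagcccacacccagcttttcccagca
Isg15: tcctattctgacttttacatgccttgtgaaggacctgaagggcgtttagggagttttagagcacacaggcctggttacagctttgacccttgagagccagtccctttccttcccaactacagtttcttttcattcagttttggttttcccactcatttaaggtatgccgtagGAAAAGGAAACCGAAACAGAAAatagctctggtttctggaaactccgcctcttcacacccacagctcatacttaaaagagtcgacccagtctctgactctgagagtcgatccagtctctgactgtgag
Ifit1: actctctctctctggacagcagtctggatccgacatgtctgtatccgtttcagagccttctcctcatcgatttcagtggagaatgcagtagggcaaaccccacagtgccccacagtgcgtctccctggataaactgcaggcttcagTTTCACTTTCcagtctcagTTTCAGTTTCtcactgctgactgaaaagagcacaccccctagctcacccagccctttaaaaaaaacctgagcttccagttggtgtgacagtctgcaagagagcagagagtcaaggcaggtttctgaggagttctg

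Ifit3 and Ifit1 held 2 matches each, and Isg15 held 3 that overlap. The motif was present in 3.26% of the 11574 promoters found for tested genes, in 11 of the 22 found for the interferon list, in 7 of the 12 found for its members that fell and in 4 of the 10 found for those that did not pass the test. A match describes these letters only. Since promoters were found for 11574 of 17475 tested genes, these shares are given as a description and were not tested.

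Cytosolic sensors of nucleic acid, which can start an interferon response, gave 4 lower and 1 higher among 18 tested. Over all genes tested, 5.12% were lower and 1.69% higher. Ddx58, encoding RIG-I, fell (32.1, 49.5 and 39.0 CPM in Combo, 72.0, 63.2 and 83.0 CPM in PD-901, edgeR adjusted p = 0.00751), as did Dhx58, Irf3 and Samhd1. Cgas, the DNA sensor that makes cyclic GMP-AMP, rose, at 34.1, 39.4 and 36.3 CPM in Combo and 17.3, 15.7 and 28.6 CPM in PD-901 (log2 change 0.83 ± 0.22, edgeR adjusted p = 0.0351), and was not called without PD-901 replicates 2 and 3. In that fit the falls of Ddx58, Dhx58 and Irf3 were not called either. Samhd1 had a log2 change of -1.18 there, with PD-901 replicate 1 as the only PD-901 library and the highest of its group (772 CPM). With Lyz2 as a covariate no sensor gene was called. Of 21 NF-kB and inflammatory cytokine genes, 7 fell and 0 rose (median -0.84), among them Tnf at 11.6, 12.1 and 12.4 CPM in Combo and 65.3, 36.9 and 32.1 CPM in PD-901 (log2 change -1.90 ± 0.25, edgeR adjusted p = 0.00193). Ptgs2, the inducible cyclooxygenase COX-2, had the largest fall among the genes ranked by change, at 4.63, 3.72 and 2.25 CPM in Combo and 103, 40.4 and 35.4 CPM in PD-901 (log2 change -4.08 ± 0.91, edgeR adjusted p = 0.0242). Its call was lost without each of the 6 libraries in turn and without 5-azacitidine replicate 3, while that of Tnf was not lost without any 1 library. The inflammatory count was 2 without Combo replicate 1, Combo replicate 3 or PD-901 replicate 1 and 2 without PD-901 replicates 2 and 3. It was 1 with Lyz2 as a covariate and 2 without the 4 libraries lowest in Lyz2.

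The 14 largest falls also held Hcar2, a receptor for niacin and hydroxybutyrate on neutrophils and macrophages, at 2.04, 5.61 and 6.35 CPM in Combo and 54.2, 24.6 and 31.2 CPM in PD-901 (log2 change -2.97 ± 0.45, edgeR adjusted p = 0.00355). Clec4d, a myeloid C-type lectin, had 10.3, 22.9 and 10.1 CPM in Combo and 157, 111 and 91.1 CPM in PD-901 (log2 change -3.05 ± 0.49, edgeR adjusted p = 0.00509). Scn4b, a sodium channel subunit, had 0.407, 1.43 and 0.237 CPM in Combo and 7.86, 10.5 and 12.2 CPM in PD-901 (log2 change -3.90 ± 0.67, edgeR adjusted p = 0.00484). Each of these had a gap of several fold between the groups. H2-Q10, a class I histocompatibility gene with close relatives, Mid1, Krt86, Col27a1 and the chemokine gene Ccl2 completed the set with Cd209a, Vpreb3, Egr1, Stfa2l1, Cstdc4 and Ptgs2. Without PD-901 replicates 2 and 3 the calls of Clec4d, Scn4b, H2-Q10, Mid1, Krt86, Ccl2, Cd209a, Vpreb3 and Ptgs2 were lost. Egr1, Stfa2l1, Cstdc4, Col27a1 and Hcar2 had log2 changes of -3.82, -3.35, -3.31, -2.58 and -3.53 in that fit. PD-901 replicate 1, the PD-901 library it kept, was the highest of its group for these genes except Col27a1.

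Genes of nucleoside handling, on which the activation and clearance of 5-azacitidine depend, moved in both directions. Of 21 tested, 4 rose (Cda, Uck2, Rrm1 and Rrm2) and 2 fell (Samhd1 and Rrm2b), with a median of 0.19. Over all genes tested, 1.69% were higher and 5.12% lower. Cda, cytidine deaminase, converts cytidine and 5-azacitidine to their uridine forms and thereby inactivates the drug. It had 115, 21 and 76 reads (5.85, 1.07 and 3.00 CPM) in the Combo libraries and 0 reads in each PD-901 library. Taking 3 counts over the PD-901 group as the floor, Cda was at least 75.5-fold higher in Combo, and the edgeR adjusted p was 0.00574. The call held without any 1 of the 12 libraries, but not without PD-901 replicates 2 and 3, and DESeq2 gave no adjusted p. Without PD-901 the same gene was at 1.91, 0.877 and 0.232 CPM in 5-azacitidine marrow and 0, 0.247 and 0.169 CPM in Vehicle marrow, groups that did not differ by the test. The Cda promoter is shown because loss of methylation at CG sites is the known action of the drug, and methylation was not measured here. It lies at chr4:138367906-138368205 on the minus strand of GRCm38.p6 (RefSeq), with CG in capitals.
Cda: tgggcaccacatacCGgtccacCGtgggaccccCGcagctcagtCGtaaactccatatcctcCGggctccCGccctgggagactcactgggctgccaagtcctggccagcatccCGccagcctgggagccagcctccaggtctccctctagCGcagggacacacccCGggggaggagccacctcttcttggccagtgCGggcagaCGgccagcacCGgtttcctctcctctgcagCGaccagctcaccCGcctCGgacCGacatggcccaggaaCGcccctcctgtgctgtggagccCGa

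These 300 bases hold 18 CG sites, near the median of 19 over the 11574 promoters (quartiles 10 and 28). Uck2, the kinase that adds the first phosphate to 5-azacitidine, had 158, 174 and 152 CPM in Combo and 94.8, 111 and 107 CPM in PD-901 (log2 change 0.63 ± 0.14, edgeR adjusted p = 0.0145). Rrm1, the large subunit of ribonucleotide reductase, had 666, 510 and 700 CPM in Combo and 407, 447 and 420 CPM in PD-901 (log2 change 0.56 ± 0.14, edgeR adjusted p = 0.0306). Samhd1, which breaks down deoxynucleoside triphosphates, had 298, 432 and 292 CPM in Combo and 772, 586 and 604 CPM in PD-901 (log2 change -0.94 ± 0.19, edgeR adjusted p = 0.00868). In all 3 the groups were separate. Dck, the kinase for deoxycytidine and decitabine, had a log2 change of -0.22 (edgeR adjusted p = 0.475), and the transporter Slc29a1 had 0.31 (edgeR adjusted p = 0.339). Of the 4 rises, 2 or fewer were called without Combo 1, Combo 3 or any 1 PD-901 library, and none without PD-901 replicates 2 and 3. The fall of Rrm2b was not called in that last fit either, and Samhd1 had a log2 change of -1.18 in it. The fit kept PD-901 replicate 1 alone, the highest PD-901 library for Samhd1.

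Among the 14 largest rises Podxl came first. It encodes podocalyxin, a sialomucin of podocytes, vessels and blood progenitors, on chr6:31519488-31563981 (mm10), and had 57.4, 25.3 and 19.6 CPM in Combo and 1.63, 3.23 and 1.27 CPM in PD-901 (log2 change 4.09 ± 0.66, edgeR adjusted p = 0.00415). Clec11a, a secreted growth factor for bone-forming and blood progenitor cells, had 14.7, 8.46 and 8.91 CPM in Combo and 2.38, 2.13 and 1.64 CPM in PD-901 (log2 change 2.38 ± 0.36, edgeR adjusted p = 0.00262). Cish, a cytokine-induced inhibitor of JAK and STAT signalling, had 10.8, 7.14 and 7.73 CPM in Combo and 3.41, 2.20 and 1.71 CPM in PD-901 (log2 change 1.81 ± 0.33, edgeR adjusted p = 0.00573). These 3 were the members of the 14 whose calls held without any 1 library, and none of the 3 was called without PD-901 replicates 2 and 3. Nutm1, a gene normally restricted to testis, had 5.44, 3.67 and 8.05 CPM in Combo and 0.198, 0.915 and 0 CPM in PD-901 (log2 change 4.05 ± 1.04, edgeR adjusted p = 0.0330). In 5-azacitidine marrow Nutm1 was at 3.49, 0.376 and 1.62 CPM, against 0, 0.0986 and 0 CPM in Vehicle marrow. Erfe, the erythroid hormone erythroferrone, had 12.4, 7.55 and 6.15 CPM in Combo and 1.35, 2.50 and 0.837 CPM in PD-901 (edgeR adjusted p = 0.0108), with exons that overlap those of Ilkap. Plek2, Arhgdig, Apol11b, Adgrg7, Mzf1, Zdhhc2, Camk2a and Pla2g4c were among the rest, with log2 changes of 1.55 (Pla2g4c) to 2.49 (Plek2), and each lost its call without at least 1 library.

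**Figure D4:**
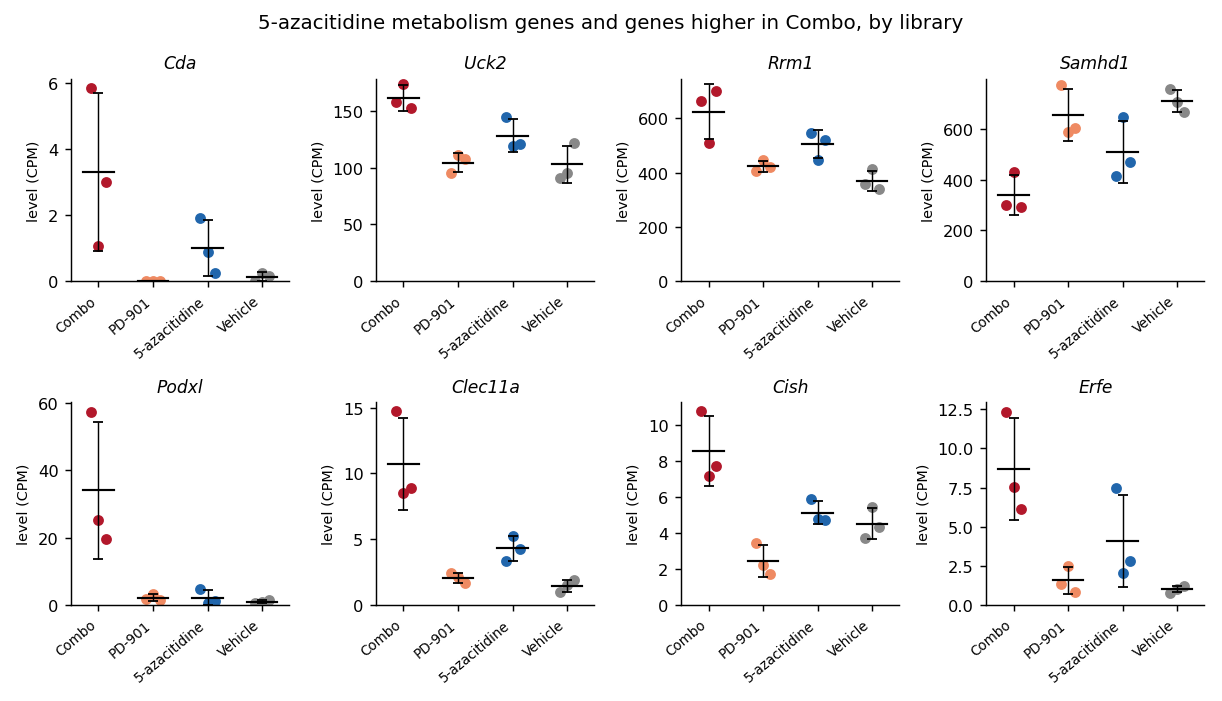
Levels (CPM, vertical axes from 0) of 4 genes of nucleoside handling (upper row) and 4 of the largest rises (lower row) in Combo, PD-901, 5-azacitidine and Vehicle marrow. Points are libraries with the group mean and SD. Cda had 1.07 to 5.85 CPM in Combo and no read in PD-901, and Samhd1 is the one gene shown with Combo below PD-901.

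Genes of the cell cycle were higher by small amounts. Of 28 tested genes of S phase and DNA replication, 9 rose and 0 fell (median log2 change 0.39), against 1.69% higher among all genes. Mcm4, a subunit of the replicative helicase, had 362, 289 and 347 CPM in Combo and 230, 235 and 212 CPM in PD-901 (log2 change 0.56 ± 0.12, edgeR adjusted p = 0.0148). Cdc6, Mcm3, Mcm6, Prim1, Pola1, Rrm1 and Rrm2 were among the others. Of 22 genes of G2 and mitosis, 3 rose (median 0.35), led by Ccnb1, cyclin B1, at 216, 200 and 234 CPM in Combo and 125, 148 and 142 CPM in PD-901 (log2 change 0.65 ± 0.13, edgeR adjusted p = 0.00763). Mki67, which marks cycling cells, had a log2 change of 0.50 (edgeR adjusted p = 0.158). Of 22 ribosome biogenesis genes, 3 rose (Gnl3, Dkc1 and Nop58, median 0.37). The S phase count was 0 without Combo replicate 1, Combo replicate 3, PD-901 replicate 1 or PD-901 replicate 3, 2 without PD-901 replicate 2, 5 without 5-azacitidine replicate 2, 4 without Vehicle replicate 2 and 14 without Combo replicate 2. For G2 and mitosis it was 0 without PD-901 replicate 1, 1 without Combo replicate 1 or 3, PD-901 replicate 2 or 3 or Vehicle replicate 2, and 5 without 5-azacitidine replicate 1. For ribosome biogenesis it was 0 without Combo replicate 1 or PD-901 replicate 1 or 3, 1 without Combo replicate 3 and 6 without PD-901 replicate 2. With the Lyz2 level as a covariate all 3 counts were 0. Without PD-901 replicates 2 and 3, no member of these 3 lists was called, with medians of 0.47, 0.43 and 0.42.

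The targets and repressed genes usually watched with a hypomethylating drug moved little. Of 17 genes of the DNA methylation machinery only Hells, a chromatin remodeller needed for methylation, passed the test (100, 112 and 87.0 CPM in Combo, 63.1, 76.0 and 59.5 CPM in PD-901, edgeR adjusted p = 0.0208). That call was lost without Combo replicate 1 or 2 or PD-901 replicate 1 or 3, and without PD-901 replicates 2 and 3 together (edgeR adjusted p = 0.152). Dnmt1, the maintenance methyltransferase, had 411, 532 and 531 CPM in Combo and 307, 373 and 430 CPM in PD-901 (log2 change 0.41 ± 0.18, edgeR adjusted p = 0.208). Of 27 germline genes that DNA methylation keeps silent in body cells, 7 had enough counts to test and none was called. The other 20 reached at most 0.814 CPM in any Combo library and 0.801 CPM in any PD-901 library, and 8 of them had no read in the 6 libraries. Of 29 imprinted genes 16 were tested and none was called (median -0.02).

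Stress and survival genes gave mixed results, where 1.69% of all genes tested were higher and 5.12% lower. Among 20 tested p53 targets, Cdkn1a, the cell cycle inhibitor p21, rose, at 32.4, 28.8 and 35.6 CPM in Combo and 14.9, 15.7 and 22.1 CPM in PD-901 (log2 change 0.88 ± 0.21, edgeR adjusted p = 0.0232), as did Ccng1. Btg2, Trp53inp1, Sesn2 and Pmaip1 fell, and the median was 0.15. Btg2 is also counted among the immediate early genes. The calls of Trp53inp1 and Sesn2 were each lost in 6 of the 12 fits without 1 library. That of Pmaip1, whose groups overlapped, was lost in 9. The count of falls was 1 without Combo replicate 1 and 0 with the Lyz2 level as a covariate. Cdkn1a was not called without PD-901 replicates 2 and 3. In the BCL2 family 2 of 17 fell, Bmf and Pmaip1, both encoding BH3-only promoters of cell death, and neither call held without Combo replicate 1 or 3, PD-901 replicate 1 or 2, 5-azacitidine replicate 3 or any 1 Vehicle library. Among 27 components of the Ras pathway 1 rose and 2 fell, against 1.69% higher and 5.12% lower over all genes. Sos1, the exchange factor that loads Ras with GTP, was the rise (42.0, 50.8 and 43.4 CPM in Combo, 26.7, 24.0 and 31.2 CPM in PD-901, edgeR adjusted p = 0.00743). Csf2ra, the GM-CSF receptor alpha chain, fell (300, 411 and 255 CPM in Combo, 653, 491 and 533 CPM in PD-901, edgeR adjusted p = 0.0147), and so did the Ras GTPase activator gene Rasal3. Neither fall was called without Combo replicate 1 or Combo replicate 3, and that of Csf2ra was also lost without PD-901 replicate 1. Without PD-901 replicates 2 and 3 the calls of Sos1 and Rasal3 were lost, and Csf2ra had a log2 change of -1.02. That fit used PD-901 replicate 1 alone, the highest of its group for Csf2ra at 653 CPM. Of 24 genes of glycolysis and hypoxia, 1 rose (Pdk1) and 2 fell, the transporters Slc16a3 and Slc2a3, and of 13 genes of polycomb repressive complex 2, 1 rose (Mtf2) and 2 fell (Phf1 and Ezh1). The 2 rises were not called without PD-901 replicates 2 and 3. In that fit the log2 changes of Slc16a3, Slc2a3 and Phf1 were -1.46, -1.41 and -2.01. It used PD-901 replicate 1 alone, the highest PD-901 library for these 3 genes, at 271, 548 and 116 CPM.

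The change with 5-azacitidine was then set beside its change without PD-901. In 5-azacitidine over Vehicle 1 gene (0.00572%) passed the test, the chaperone gene Hsph1. Xist was above 100 CPM in every Vehicle library but, among 5-azacitidine libraries, only in replicate 2. Its part in this comparison was not tested. Of the 296 genes higher in Combo than PD-901, 243 (82.1%) were also positive in 5-azacitidine over Vehicle, and 767 of the 895 lower genes (85.7%) were also negative there. The 2 comparisons had the same sign for 61.8% of all genes tested. The sizes differed between the comparisons. The median log2 change of the higher genes was 0.63 in Combo over PD-901 and 0.23 in 5-azacitidine over Vehicle, and that of the lower genes was -1.03 and -0.30. Since the genes were chosen by the first of these comparisons, its medians describe that choice.

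A direct test of the difference between the 2 changes, the interaction, called 0 of 17475 genes (0%) with edgeR, where 1871 had an unadjusted p under 0.05, DESeq2 called 288 and limma-voom called 4. The smallest edgeR adjusted p was 0.0600, shared by Dusp6, Hsph1 and Zhx2. Dusp6 had a log2 change of -2.70 in Combo over PD-901 and -0.22 in 5-azacitidine over Vehicle, where it was at 116, 233 and 164 CPM in 5-azacitidine and 209, 173 and 218 CPM in Vehicle. Hsph1 was at 135, 166 and 115 CPM in Combo and 121, 183 and 183 CPM in PD-901 (log2 change -0.23, edgeR adjusted p = 0.543), while its log2 change in 5-azacitidine over Vehicle was 1.52 (edgeR adjusted p = 0.0115). Among the 5-azacitidine libraries replicate 1 was the lowest for Dusp6, Scn4b (1.91 CPM), Vpreb3 (6.92 CPM) and H2-Q10 (15.4 CPM), and leaving it out gave 150 genes in the interaction test. That number was 20 without Combo replicate 2, 12 without Vehicle replicate 3, and 1 without Combo replicate 3 or PD-901 replicate 1.

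**Figure D5:**
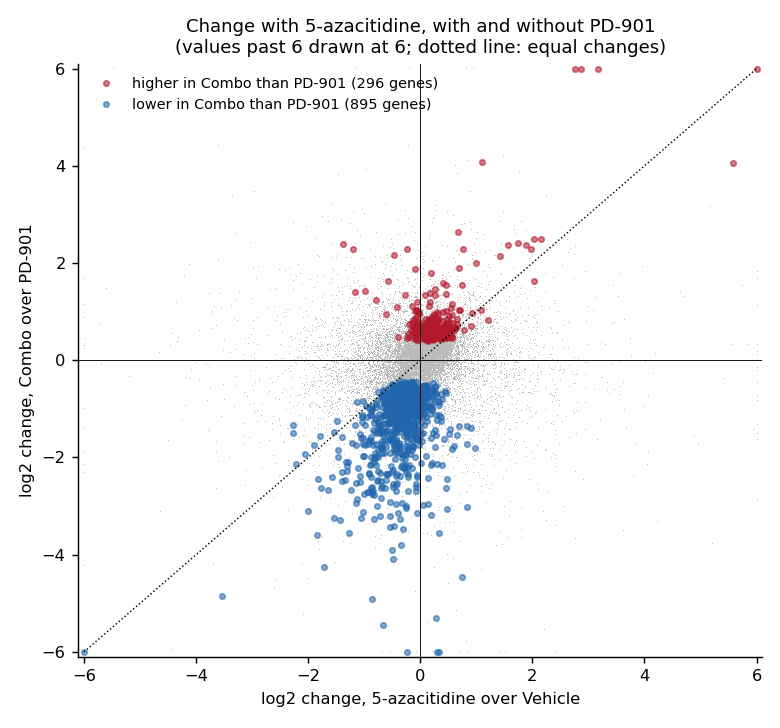
Log2 change of 5-azacitidine over Vehicle (horizontal axis) against that of Combo over PD-901 (vertical axis) for each of the 17475 genes tested, with the 296 higher and 895 lower genes coloured and the rest in grey. Most coloured points lie farther from 0 on the vertical axis than on the horizontal one, with medians of -1.03 and -0.30 for the lower genes.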

How the data were processed

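Total RNA from whole bone marrow was sequenced from 12 mice, 3 a group, after selection for an RNA integrity number above 7, per the labels' protocols. The values deposited are raw counts of reads for each gene. Per the submitters' processing notes, the tools were bcl2fastq, STAR 2.7.2a, featureCounts and Subread 1.6.5 on mm10. No source used here gives the strand setting, so reads of genes with overlapping exons cannot be told apart. Groups come from the labelled agent, and replicate numbers only name mice. The members and gene lists were chosen with earlier results of these data known.

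Genes with enough counts (filterByExpr, minimum count 10, total 15) were fitted in edgeR 4.0.16 (R 4.3.3) with TMM scaling, 1 mean for each of the 4 groups and the robust quasi-likelihood F test, which is two-sided. P-values were adjusted by Benjamini-Hochberg over all 17475 genes, with a threshold of 0.05. All 12 libraries share the estimate of spread (8 residual degrees of freedom, common biological coefficient of variation 0.328). Levels are CPM on TMM-scaled totals. The interaction is the Combo minus PD-901 change minus the 5-azacitidine minus Vehicle change. Replicate pairs within Combo and PD-901 differed beyond counting noise (chi-square 22.6 to 51.7 for each degree of freedom), so none was counted as a copy. The fit was tested on simulated data. Counting floors cover counting error only.

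Named genes are the 14 largest changes in each direction among called genes with no overlap between groups and 5 CPM or more on average in the group with more, the 5 members of lowest p in each list and 9 genes named whatever their values. List members beyond these 5, such as Fos, Isg15, Ifit1 and Slc4a1, were named as examples after their values were seen, and some genes counted in the lists are not reported here by name. Alternatives were DESeq2 size factors, no filter or a minimum count of 50, DESeq2 1.42.0, limma-voom (limma 3.58.1), the 6 libraries alone and each library left out. Chosen after seeing the data were fits with Lyz2 level or Xist above 100 CPM as a covariate and fits without the 4 libraries lowest in Lyz2 or without PD-901 replicates 2 and 3.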

Additional observations from a re-analysis of the deposited data

How the results depend on the processing

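No paired analysis was possible because the labels give no replicate numbers that are shared between groups. The full comparison gave 296 higher and 895 lower genes. With no low-count filter there were 503 higher, with DESeq2 763 higher and 1452 lower. Leaving out 1 library at a time gave 35 to 427 higher genes, 326 to 1136 lower genes and 0 to 150 genes in the interaction test. The interaction test gave 400 genes with no filter, 288 with DESeq2 and 4 with limma-voom. Among the fits chosen after seeing the data, Lyz2 as a covariate left 12 higher and 144 lower genes, Xist as a covariate 34 and 486, omission of PD-901 replicates 2 and 3 left 8 and 422 with 8 in the interaction test, and omission of the 4 libraries lowest in Lyz2 left 239 and 454 with 30. The cause was not tested. None of the 1191 called genes changed sign under any alternative. The 3 mice a group limit the precision, and the depth limits it further for genes with few reads.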

Other observations

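Heat shock chaperones, which fold damaged proteins, gave 0 calls among 19 tested in Combo over PD-901, with a median log2 change of 0.15, and a median of 0.68 in 5-azacitidine over Vehicle, where Hsph1 was the only call. Heme synthesis and erythroid iron genes gave 2 higher calls of 20, Erfe and Fech, against 1.69% higher over all genes. Fech, ferrochelatase, which inserts iron into heme, had 215, 122 and 334 CPM in Combo and 115, 120 and 118 CPM in PD-901 (log2 change 0.93 ± 0.26, edgeR adjusted p = 0.0478). Without Combo replicate 2, the lowest Combo library for erythroid genes, 11 of these 20 were called higher.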
